A study of Mus musculus with 2 samples.

Results

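The genes described here are 10 genes of fat cell formation and fatty acid synthesis: the transcription factors Pparg, Cebpa, Cebpb and Srebf1, the synthetic enzymes Fasn, Acaca and Scd1, and the lipid handling genes Fabp4, Lpl and Plin2. They were chosen by name, and every probe set that the array annotation assigned to 1 of them was taken, which gave 17 of 45037 probe sets and 10 of 18193 named genes. Their signals were compared between cultured mouse skeletal myoblasts labelled Foxj3 wild type (WT) and Foxj3 knockout (KO). Foxj3 encodes a forkhead transcription factor. Each group was 1 culture on 1 Affymetrix Mouse430_2 array. Both cultures were harvested at passage 3, at 80% confluence, from DMEM with 20% fetal bovine serum. The knockout allele, its reach in the animal, and the age and sex of the donor animals are not given in the sources used here. Without replicates there was no spread between cultures to set a difference against, so no test was made and every ratio describes these arrays. Ratios are KO over WT throughout.

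Myoblasts and adipocytes both derive from mesodermal precursors, and cells of skeletal muscle can accumulate lipid or, in the case of fibro-adipogenic progenitors, become adipocytes. In the adipogenic cascade the early factor C/EBPβ (Cebpb) acts ahead of PPARγ (Pparg) and C/EBPα (Cebpa), which maintain each other and switch on adipocyte genes such as Fabp4, Lpl and Plin2. SREBP1 (Srebf1) drives the enzymes that make fatty acids from acetyl-CoA: Acaca makes malonyl-CoA, Fasn builds palmitate from it, and Scd1 puts in the first double bond.

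For 7 of the 10 genes, 11 promoter windows of 250 bases upstream of a transcription start were taken from RefSeq (GRCm38.p6). The 3 shown are those of the enzyme gene furthest below 0 among the 7, of the factor furthest above 0, and of the factor whose probe sets pointed in opposite directions. Capitals mark matches on either strand to a CCAAT box (CCAAT, bound by NF-Y), a TATA box (TATAAA) or a GC box (GGGCGG, bound by Sp1). The Cebpa and Cebpb windows lie before the annotated gene, and the Fasn window lies inside the annotated span of Fasn, which has a start further upstream.
Fasn, chr11:120824548-120824797, minus strand: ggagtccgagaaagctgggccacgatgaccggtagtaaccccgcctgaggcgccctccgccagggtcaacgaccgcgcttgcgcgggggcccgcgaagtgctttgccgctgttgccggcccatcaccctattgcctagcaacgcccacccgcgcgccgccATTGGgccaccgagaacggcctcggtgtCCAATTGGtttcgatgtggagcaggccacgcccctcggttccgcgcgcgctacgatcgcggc
Cebpa, chr7:35119043-35119292, plus strand: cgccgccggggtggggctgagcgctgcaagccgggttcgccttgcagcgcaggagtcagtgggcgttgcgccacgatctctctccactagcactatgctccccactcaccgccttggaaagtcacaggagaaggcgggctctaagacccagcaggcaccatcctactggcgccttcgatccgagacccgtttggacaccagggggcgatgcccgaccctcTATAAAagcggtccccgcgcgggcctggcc
Cebpb, chr2:167688665-167688914, plus strand: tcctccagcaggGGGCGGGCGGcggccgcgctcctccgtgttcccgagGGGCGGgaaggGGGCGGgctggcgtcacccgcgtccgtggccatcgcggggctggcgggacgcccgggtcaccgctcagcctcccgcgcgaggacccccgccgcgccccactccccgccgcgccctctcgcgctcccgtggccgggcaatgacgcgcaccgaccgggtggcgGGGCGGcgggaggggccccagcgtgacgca

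The windows differ in their motifs. The Fasn window holds 3 matches to the CCAAT box, from bases 90 to 86, 62 to 58 and 59 to 55 before the start, and the last 2 overlap. The Cebpa window holds a TATA box 30 to 25 bases before the start. The Cebpb window holds 5 GC boxes, of which 2 overlap. Over all 32851 windows of this length, 33.8% hold a CCAAT box, 32.7% a GC box and 12.4% a TATA box. The other motifs searched on both strands were the E-box CACGTG (6.02% of all windows), a sterol regulatory element TCACNCCAC (1.05%), a C/EBP motif TTGCNNAAT (2.11%) and the forkhead motif GTAAACA (3.17%). No window of the 7 genes held these letters.

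All 10 genes were measured, meaning that their brightest probe set was over the detection floor on at least 1 array. The floor, a signal of 47.04, was the 40th percentile of all values of both arrays. By these brightest probe sets 8 genes were lower and 2 higher in the KO library, where 53.7% of all 14597 measured genes were lower and 46.3% higher. Fabp4 and Fasn were at least 2-fold lower, as were 6.72% of all measured genes, and 0 of the 10 were at least 2-fold higher (3.73% of all). At 1.5-fold, 6 of the 10 were lower (19.3% of all) and 0 higher (12.8%), and at 3-fold Fabp4 alone was lower (1.51%) and 0 were higher (0.747%). The 6 include Cebpb, Lpl and Acaca, each with another measured probe set that was higher in the KO library. Counted by probe set, 14 of the 17 were measured, of which 8 were lower and 6 higher, 2 at least 2-fold lower (6.67% of all measured probe sets) and 0 at least 2-fold higher (5.62%). By gene, the 10 had a median log2 ratio of -0.71, against -0.06 for all measured genes, and the range was -1.86 to 0.44. When the measured probe sets of each gene were averaged the median was -0.21. The 10 genes share their RNA samples and are not replicates. In bulk samples fewer cells of a type and less RNA per cell cannot be told apart.

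**Figure D1:**
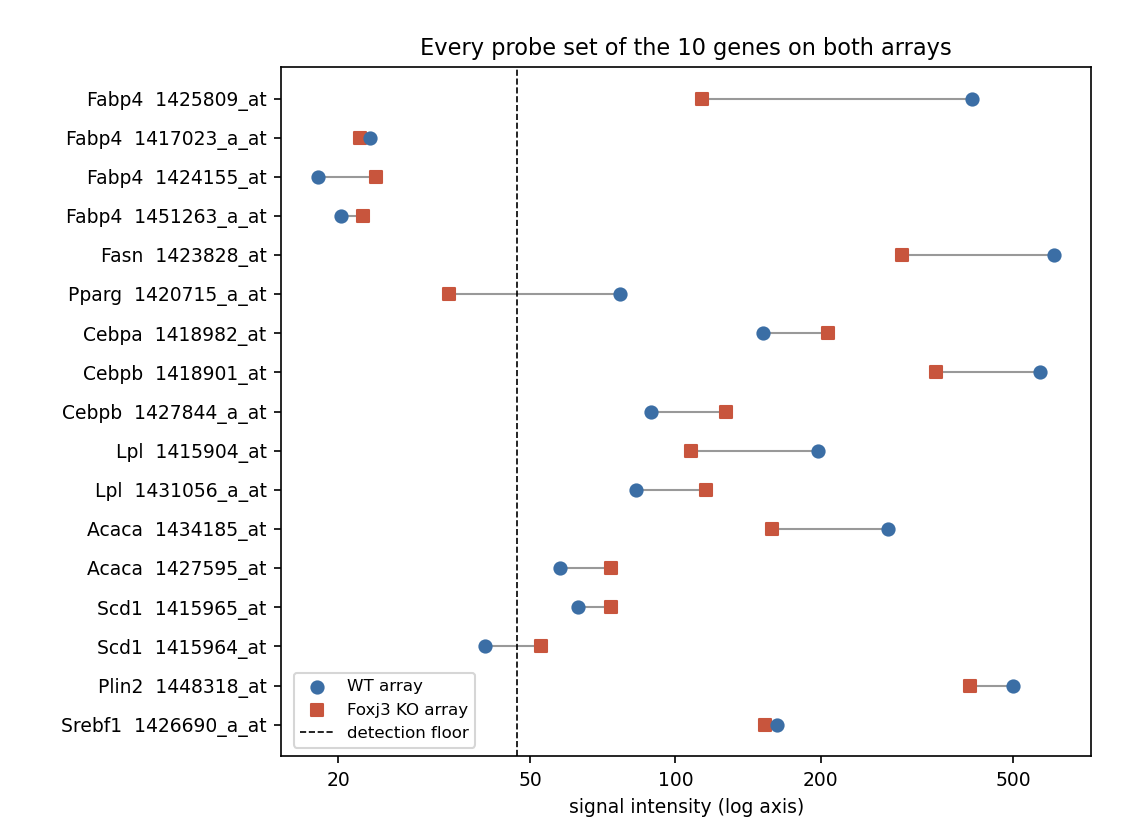
Signal intensity (log axis) of each of the 17 probe sets of the 10 genes on the WT array (circles) and the Foxj3 KO array (squares), with the detection floor of 47.04 as a dashed line. The widest gap is that of Fabp4 probe set 1425809_at, while the other 3 Fabp4 probe sets lie under the floor on both arrays.

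Among the lipid handling genes Fabp4, a fatty acid binding protein abundant in adipocytes and also made by macrophages and capillary endothelium, had the lowest ratio. Its probe set 1425809_at had a signal of 412.18 in WT and 113.25 in KO, which is 3.64-fold lower (log2 ratio -1.86), and 0.808% of measured genes had a ratio this low or lower. The other 3 Fabp4 probe sets were under the floor in WT and in KO. Probe set 1417023_a_at read 23.26 and 22.23, 1424155_at read 18.18 and 23.99, and 1451263_a_at read 20.32 and 22.51. The Fabp4 difference therefore rests on 1 of 4 probe sets, the only 1 of them for which the array annotation lists no source sequence. The other 3 have a listed source sequence, give no ratio and did not detect Fabp4 on either array. Whether 1425809_at reads Fabp4 RNA was not tested.

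Lpl encodes lipoprotein lipase, which frees fatty acids from circulating triglyceride. By probe set 1415904_at its signal was 196.90 in WT and 107.89 in KO (log2 ratio -0.87). Probe set 1431056_a_at read 82.85 and 115.85, in the opposite direction (log2 ratio 0.48). The mean of these log2 ratios was -0.19, so the direction of Lpl depended on which probe set was read.

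Plin2 encodes the lipid droplet coat protein perilipin 2, which most cell types make when they store lipid. Its single probe set, 1448318_at, read 501.22 and 406.58 (log2 ratio -0.30). A ratio this low or lower was found in 33.8% of measured genes.

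Of the synthetic enzymes, Fasn, the fatty acid synthase, had a signal of 609.51 in WT and 294.74 in KO by its single probe set 1423828_at, which is 2.07-fold lower (log2 ratio -1.05). The value lies just past 2-fold and came under it with loess scaling (log2 ratio -0.96) and with a pseudocount equal to the floor (-0.94). Acaca encodes acetyl-CoA carboxylase 1, the step before Fasn. Its signals were 276.06 and 158.23 (log2 ratio -0.80) by probe set 1434185_at, and its dimmer probe set 1427595_at read 57.60 and 73.39 (0.35). The mean over both was -0.23.

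Scd1, the stearoyl-CoA desaturase of adipose tissue and liver, was close to the floor on both arrays. The signals of probe set 1415965_at were 62.94 and 73.62 (log2 ratio 0.23). Probe set 1415964_at read 40.38, under the floor, in WT and 52.67 in KO, at least 1.12-fold higher. Scd1 was the only 1 of the 4 genes with more than 1 measured probe set whose probe sets pointed the same way.

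The transcription factors had no common direction. Pparg, the nuclear receptor required for adipocyte formation, read 76.75 in WT and 33.88, under the floor, in KO by its single probe set 1420715_a_at, at least 1.63-fold lower. When the floor was lowered to the 20th percentile, or left out, both values entered as read and the log2 ratio was -1.18, past 2-fold. With the floor at the 60th percentile Pparg was not measured.

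Cebpa read 152.03 and 206.82 by its single probe set 1418982_at (log2 ratio 0.44), the highest ratio of the 10. Cebpb read 568.87 and 345.84 by probe set 1418901_at (log2 ratio -0.72) and 88.94 and 127.28 by probe set 1427844_a_at (0.52), with a mean of -0.10. Srebf1 read 162.20 and 153.21 by its single probe set 1426690_a_at (log2 ratio -0.08), the value nearest to 0 among the 10. Its sign changed with quantile scaling (0.01) and loess scaling (0.03).

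**Figure D2:**
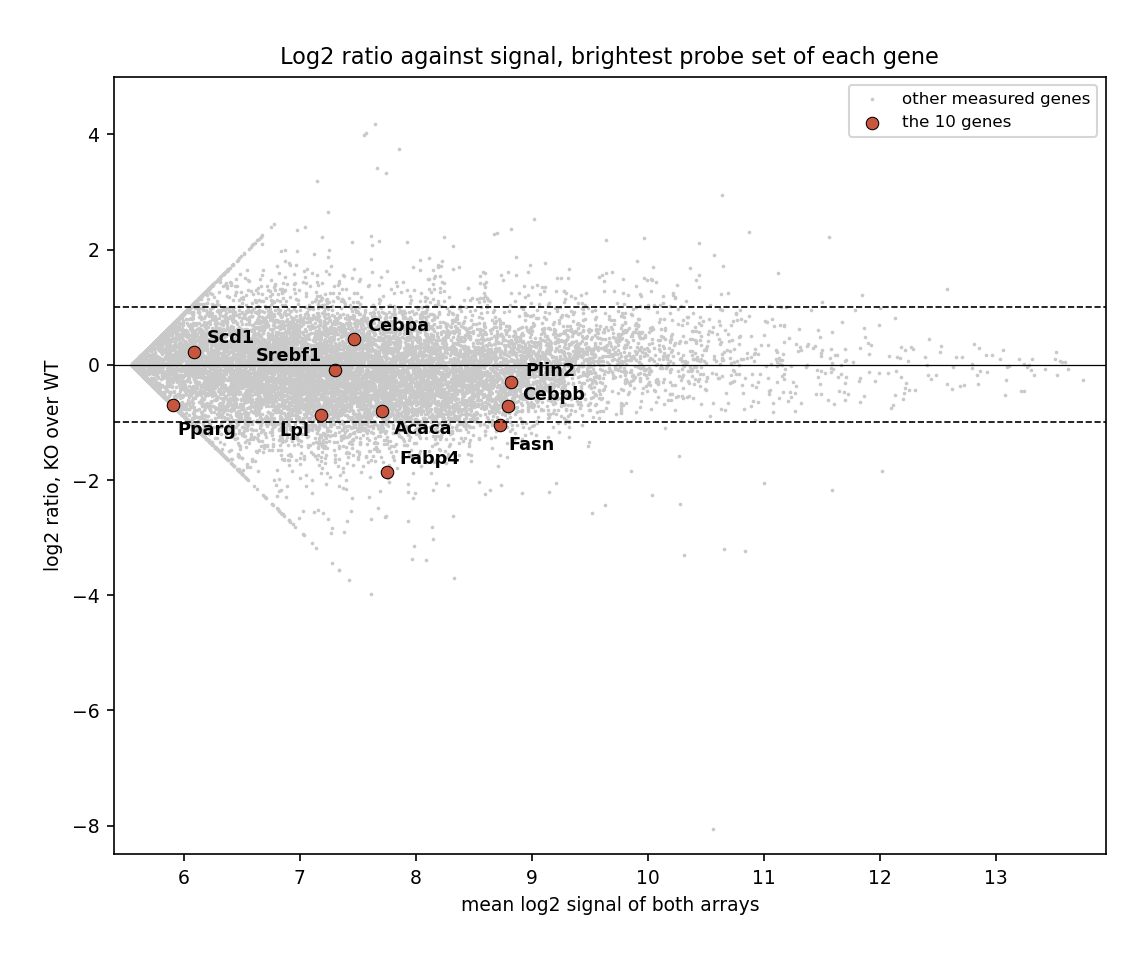
Log2 ratio, KO over WT, against the mean log2 signal of both arrays for the brightest probe set of each of the 14597 measured genes (grey) and the 10 genes (red); dashed lines mark 2-fold, and the straight edges at left are genes under the floor on 1 array. Fabp4 (-1.86) and Fasn (-1.05) lie below the lower line, and the other 8 lie between the lines.

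Cebpb, Lpl and Acaca shared a pattern: the brighter probe set was lower in the KO library and the dimmer probe set higher. The gap between the log2 ratios of a gene's probe sets was 1.24 for Cebpb, 1.35 for Lpl and 1.15 for Acaca, and 0.06 for Scd1. Over the 3047 genes that had exactly 2 probe sets above the floor in WT and in KO, the median gap was 0.59. In 27.9% of those genes the brighter probe set was lower and the dimmer one higher, in 19.3% the reverse, in 29.8% both were lower and in 23.0% both were higher. The SD of log2 ratios between probe sets of a gene, pooled over 4752 genes, was 0.66. The ratios of Cebpb, Lpl and Acaca at their brightest probe sets, between -0.72 and -0.87, are thus of the size of the spread between probe sets.

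Over all probe sets above the floor in WT and in KO, the ratio also varied with signal. Those with a mean log2 signal from the floor to 7 had a median log2 ratio of 0.004, those from 7 to 8 of -0.12, those from 8 to 9 of -0.15 and those from 9 up of 0.10. The share below 0 in these bands was 49.7%, 57.5%, 60.3% and 42.0%. Loess scaling, which removes such a trend, gave -0.77 for Lpl, -0.67 for Acaca and -0.64 for Cebpb at their brightest probe sets.

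**Figure D3:**
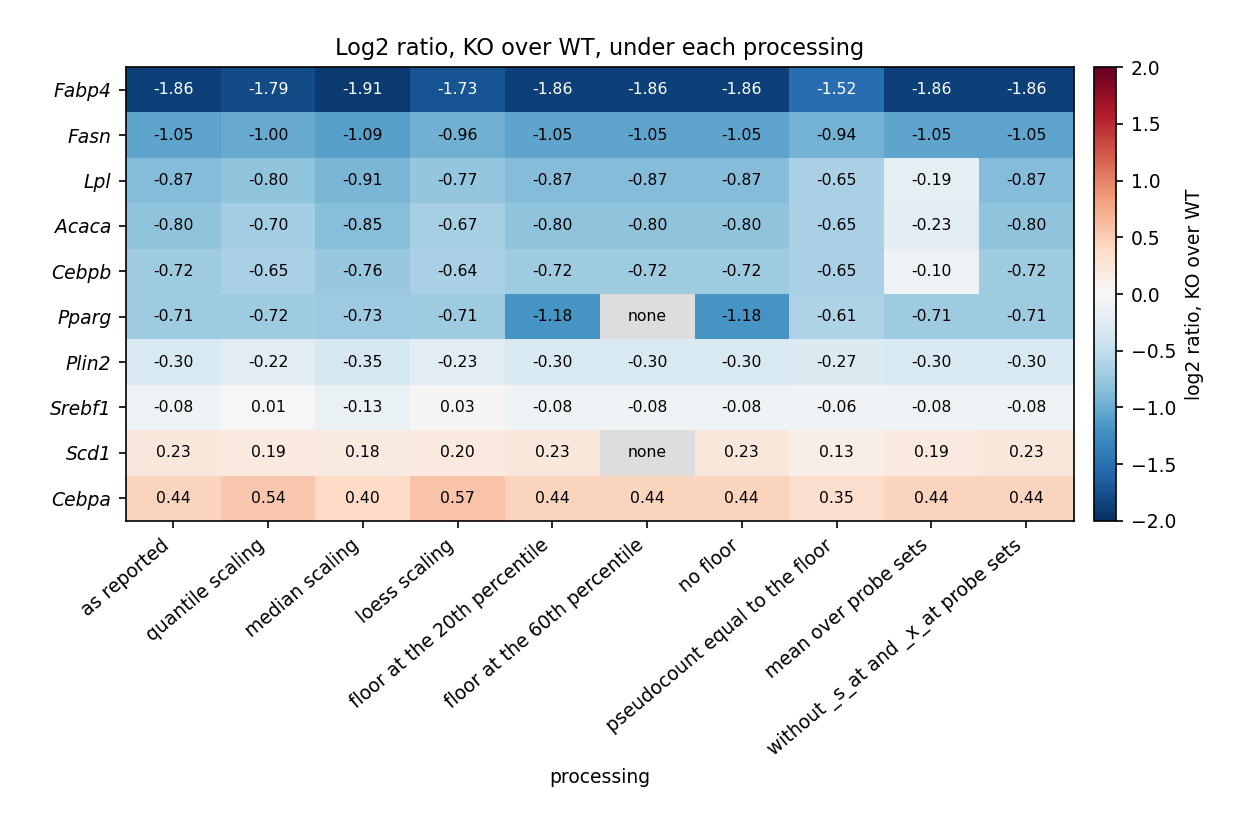
Log2 ratio, KO over WT, of each of the 10 genes (rows) as reported and under 9 other ways of processing (columns); blue is lower and red higher in the KO library, and grey marks a gene not measured. Fabp4, read by probe set 1425809_at alone in every column, stays between -1.91 and -1.52. Lpl, Acaca and Cebpb come to -0.19, -0.23 and -0.10 when their probe sets are averaged.

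The genes around these 10 in lipid metabolism were read from 7 lists with 141 genes between them, none of the 10 included. Of these 121 were measured, 11 were at least 2-fold lower (9.09%, against 6.72% of all measured genes) and 5 at least 2-fold higher (4.13%, against 3.73%). Their median log2 ratio was -0.20.

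By brightest probe sets, 3 of 25 measured regulators of adipogenesis other than the 10 were lower by 2-fold or more. In the other direction 0 reached 2-fold, and their median was -0.19 (log2). These counts depended on the probe set read. Cebpd had 0.49 at its brightest probe set, but its other read 199.26 and 54.49 (-1.87). Klf5 had -0.19 at its brightest probe set and 1.14 and 1.01 at the others. Nr3c1 had -0.96 at its brightest probe set, and another was at least 2.84-fold lower. Ppargc1a and Ppargc1b encode the PGC-1 coactivators, partners of PPAR receptors that promote mitochondrial and oxidative genes. Ppargc1a read 168.81 and 51.42, 3.28-fold lower (log2 ratio -1.72), and 2 of its other probe sets had log2 ratios of -1.47 and -0.48. The remaining Ppargc1a probe set was under the floor at 28.06 in WT and read 50.27 in KO, at least 1.07-fold higher. Ppargc1b read 417.48 and 207.37 (-1.01) by its single measured probe set. Zfp467, a zinc finger factor that favours adipogenesis, read 97.22 and was under the floor at 43.53, at least 2.07-fold lower, while the remaining Zfp467 probe set was under the floor at 46.02 in WT and read 63.03 in KO, at least 1.34-fold higher.

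Of 14 measured genes in the list named SREBP1 and ChREBP regulation, 1 was at least 2-fold lower and 1 at least 2-fold higher, with a median log2 ratio of 0.16. Insig1, which holds SREBP precursors in the endoplasmic reticulum and is itself an SREBP target, read 168.21 and 63.94, 2.63-fold lower. Thrsp, a lipogenic regulator, was under the floor at 28.65 in WT and read 166.17 in KO, at least 3.53-fold higher. The remaining Thrsp probe set read 55.19 in WT and was under the floor at 20.20 in KO, at least 1.17-fold lower.

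Among 24 measured genes of fatty acid synthesis and desaturation 2 were at least 2-fold lower and 2 at least 2-fold higher, with a median log2 ratio of -0.22. Without probe sets whose names end in _s_at or _x_at, which match several transcripts, this median was 0.11. Acly, which makes the acetyl-CoA used by Acaca, read 709.62 and 276.02 (log2 ratio -1.36) by an _x_at probe set, with -0.41 at another _x_at probe set and -0.30 and 0.26 at those without this ending. Elovl1, an elongase of very long chains, read 500.62 and 119.77 (-2.06), and all 3 of its lower probe sets (-2.06, -2.03 and -1.94) end in _x_at. Its single probe set without this ending pointed the other way, at 117.20 and 231.91 (0.98). Neither lower call was thus reached by a probe set without this ending. Tecr, which completes the elongation cycle, read 326.16 and 850.09 (1.38; other probe set 0.28). Slc25a1, the mitochondrial citrate carrier that supplies Acly, read 107.25 and 240.16 (1.16).

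Fatty acid activation and triglyceride synthesis had the lowest median of the 7 lists, -0.60. Its 19 measured genes included 4 at least 2-fold lower and 1 at least 2-fold higher. With probe sets averaged the median was -0.37. Fitm2, which partitions triglyceride into droplets, read 323.04 and 96.29, 3.35-fold lower. Bscl2, which encodes the droplet assembly protein seipin, read 158.50 and 51.61 (log2 ratio -1.62), with 0.17 at its other probe set. Acsl3, an acyl-CoA synthetase of nascent droplets, read 228.62 and 89.64 (-1.35), and its other probe set read 142.73 in WT and was under the floor at 35.66 in KO, at least 3.03-fold lower. Agpat3, an acyltransferase named here after its values were seen, had -1.24, with -1.23 and 0.69 at the others. Fitm1, the muscle paralog of Fitm2, read 187.48 and 376.58, 2.01-fold higher, so these paralogs differed in direction.

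**Figure D4:**
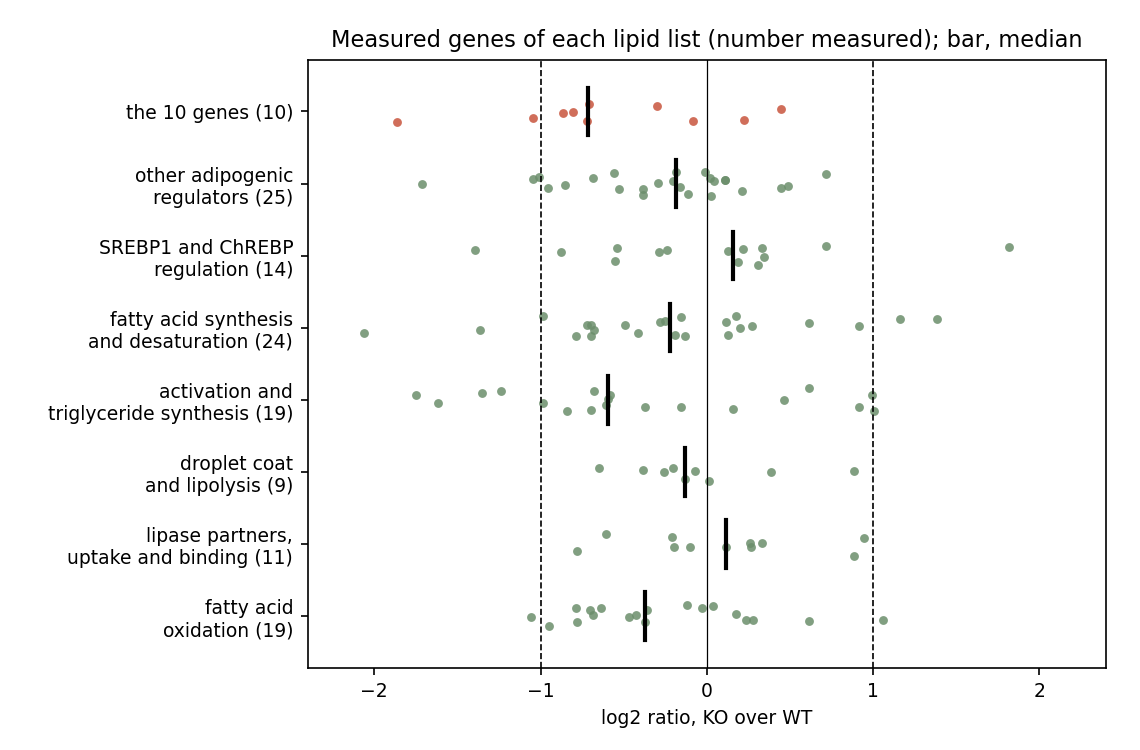
Log2 ratio, KO over WT, of the brightest probe set of each measured gene in the 10 genes (red) and the 7 lipid lists (green), with the number measured in brackets, the median as a black bar and 2-fold as dashed lines. Medians of the lists run from -0.60 (activation and triglyceride synthesis) to 0.16 (SREBP1 and ChREBP regulation).

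By brightest probe sets, genes of the droplet coat and lipolysis, to which Plin2 is related, had 0 of 9 measured members at 2-fold in either direction. Their median log2 ratio was -0.13. The largest of these ratios were those of Pnpla2, the first lipase of triglyceride breakdown, at 235.51 and 435.56 (0.89), and Plin4 at 170.04 and 108.68 (-0.65). A dimmer probe set of Abhd5 read 74.35 and 310.50 (2.06), while its other probe sets had -0.26 and -0.19. The list of lipase partners, fatty acid uptake and binding, to which Lpl and Fabp4 are related, also had 0 of 11 at 2-fold, with a median of 0.12 that became -0.10 with probe sets averaged. Its largest ratios at brightest probe sets were those of Fabp1, under the floor at 34.03 in WT and 90.47 in KO (at least 1.92-fold higher), and of the fatty acid transporter Slc27a1 at 80.82 and 149.40 (0.89, other probe set -0.36). Vldlr had -0.60 at its brightest probe set and from -1.35 to 0.16 at the others.

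Paralogs of Fabp4, named here after their values were seen, differed among themselves and between their probe sets. Fabp5, the epidermal form that is widely expressed, read 999.65 and 870.45 (log2 ratio -0.20), and -0.33 at its other probe set. Fabp3, the heart and muscle form, read 142.37 and 171.37 (0.27) by its brightest probe set, whereas the other read 176.85 in WT and was under the floor at 34.75 in KO, at least 3.76-fold lower.

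Fatty acid oxidation, the opposing pathway, had 19 measured genes. Of these 1 was at least 2-fold lower and 1 at least 2-fold higher, and their median was -0.37. Without _s_at and _x_at probe sets the median was -0.03. Cpt2, the inner carnitine palmitoyltransferase, read 297.93 and 143.00 (-1.06), and its other probe set gave -1.34. Cpt1a, the outer carnitine palmitoyltransferase that malonyl-CoA inhibits, read 99.27 and 206.56 (1.06) by its brightest probe set, while its others, both _x_at, gave -1.26 and -1.48.

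Markers of the labelled cell type were present on both arrays: all 10 myoblast markers were measured, among them Myod1 at 631.27 and 1750.95, Myog at 1753.96 and 487.79, Myf5 at 731.38 and 723.84, and Pax7 at 512.87 and 626.84. By brightest probe sets 1 was at least 2-fold higher, Myod1 (2.77-fold), and 1 at least 2-fold lower, Myog (3.60-fold). The summed signal of the 10 was 7892 in WT and 6533 in KO, but 4 of them were higher and 6 lower in the KO library. Des, the brightest in WT, read 2024.29 and 1090.79 (log2 ratio -0.89), with 0.82 at its other probe set. Vcam1 had 0.09 at its brightest probe set and 2.97 and 2.59 at the others. The sum therefore does not describe each marker and depends on the probe sets used. Foxj3 itself read 495.51 and 77.28 by its brightest probe set (log2 ratio -2.68), but 79.74 and 99.40 by another, and which part of the gene each reads is not given in the sources used here, so the label is not settled by them.

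Several defining markers of mature adipocytes were under the floor. Of 10 adipocyte markers on the array 6 were measured, with a summed signal of 1094 and 897. By brightest probe sets 3 of the 6 were higher and 3 lower in the KO library, with a median log2 ratio of -0.01. The sum includes the fall of Car3 given below and does not describe each marker. Adiponectin (Adipoq, 18.11 and 31.26), leptin (Lep, 3.60 and 31.38), Cidec (25.98 and 42.88) and Ucp1 (41.85 and 28.02) were under the floor on both arrays. The 1 marker at least 2-fold lower was Car3, a carbonic anhydrase that muscle also makes, at 281.98 and, under the floor, 26.36 (at least 5.99-fold). Another Car3 probe set was also under the floor in KO, at least 1.61-fold lower, and the last read 71.88 and 106.62 (0.57). Progenitor markers were measured for 8 of 11, with summed signals of 1185 and 1223 and 0 at 2-fold. Of the 8, 5 were higher and 3 lower in the KO library. The largest ratios were those of Dpp4 at 177.60 and 102.94 (log2 ratio -0.79) and Pi16 at 68.86 and, under the floor, 28.02. The brightest markers were Pdgfra at 453.70 and 388.91 (-0.22) and Col3a1 at 365.03 and 480.72 (0.40). Dcn was under the floor at 24.06 in WT and read 67.49 in KO, at least 1.43-fold higher. Cd34, Thy1 and Lum were under the floor on both arrays.

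Markers of macrophages and endothelium, which make Fabp4 outside fat, had these values. Macrophage markers were measured for 6 of 11 genes, with summed signals of 840 and 736 and 0 at 2-fold. The largest ratios were those of Spi1 at 123.04 and 62.02 (log2 ratio -0.99) and Cd14 at 83.23 and, under the floor, 35.99. Of the 6, 2 were higher and 4 lower in the KO library. Csf1r was higher, at 171.16 and 276.49 (0.69), with 1.11 and -0.35 at its other probe sets. Adgre1, the brightest, read 312.77 and 210.32 (-0.57), while Lyz2 (-0.005) and Mrc1 (0.04) were near level. Cd68, Itgam, Ptprc, C1qa and Aif1 were under the floor on both arrays. Endothelial markers were measured for 5 of 11, with summed signals of 383 and 544. Of the 5, 4 were higher and 1 lower in the KO library (46.3% and 53.7% of all measured genes). Among the 4, Cdh5 was under the floor at 28.30 in WT and read 63.12 in KO. Gpihbp1 read 53.34 and 63.96, close to the floor. Esam was under the floor at 45.06 in WT and read 94.66 in KO, at least 2.01-fold higher. Egfl7 read 145.74 and 221.22 (0.60), with -0.37, 0.22 and 2.84 at its other probe sets, and Kdr read 110.20 and 101.27 (-0.12). Pecam1, Tek, Emcn, Tie1, Vwf and Cldn5 were under the floor on both arrays. The part of these cells in the Fabp4 and Lpl values was not tested.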

How the data were processed

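Total RNA (10 ug per sample, per the labels' protocols) from 1 WT and 1 Foxj3 KO culture was labelled with biotin and hybridised to 1 array each. The table the authors deposited gives each probe set a linear signal intensity on each array. How probes were summarised and arrays scaled is not given in the sources used here. Means without the lowest and highest 2% of values were 126 (WT) and 126 (KO), so values were used as deposited. Array lot and scan day were shared.

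Genes were assigned from the platform annotation, with symbols updated by Entrez identifier (RefSeq, GRCm38.p6): 34945 had 1 symbol, 932 several and 9160 none listed, and those with several or none were left out. Values below the floor (40th percentile, 47.04) were raised to the floor and log2 was taken. The brightest probe set, by mean log2 signal, stood for the gene. Where either array was below the floor, the fold is printed as "at least"; medians, plots and alternatives use the floored value. With 1 array per group the number of arrays limits the precision, no test or p-value was possible, and 2-fold was the threshold.

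The 10 genes, the 7 lipid lists and the 5 marker lists were chosen with earlier results of these data known. Named from each list were up to 3 genes at least 2-fold higher and 3 lower, or the 2 largest ratios if none reached 2-fold; other genes were named after their values were seen, which includes Myf5, Pax7 and all markers given as under the floor. Lipe, Cidec, Plin1, Gpihbp1 and Dlk1 are each in a lipid list and a marker list. Alternatives were loess (span 0.3), median and quantile scaling, a floor at the 20th or the 60th percentile, a minimum of 1 in place of the floor, the floor added as a pseudocount, averaging the measured probe sets, leaving out _s_at and _x_at probe sets, and thresholds of 1.5-fold and 3-fold. The calculation was tested on simulated data and run in Python 3.11.15 with pandas 2.3.3, numpy 2.4.6, scipy 1.17.1 and statsmodels 0.14.6.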

Additional observations from a re-analysis of the deposited data

How the results depend on the processing

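No paired analysis was possible because each group had 1 array. The number of the 10 genes at least 2-fold lower was 2 as reported, and 1 (Fabp4) with loess scaling, with a pseudocount equal to the floor and at 3-fold. It was 3, with Pparg added, when the floor was lowered to the 20th percentile or left out, and 6 at 1.5-fold, where 19.3% of all measured genes were lower. Those 6 include Cebpb, Lpl and Acaca, each with another measured probe set that was higher in the KO library. The number at least 2-fold higher was 0 under every alternative run. The median log2 ratio of the 10 was -0.21 with the mean over probe sets and between -0.76 and -0.63 under the other alternatives; with the floor at the 60th percentile this is over 8 genes, without Pparg and Scd1. Fabp4 was past 2-fold in each alternative, but every alternative read it by probe set 1425809_at alone. They therefore could not show how far the Fabp4 ratio depends on the choice of probe set. Srebf1 was the only 1 of the 10 whose sign changed. Over all genes, 981 were at least 2-fold lower and 544 higher as reported, against 485 and 313 with the pseudocount, 626 and 443 with the mean over probe sets, and 1873 and 1567 without a floor. A floor at the 20th percentile gave 1241 and 873, and at the 60th 680 and 353. Of 108 medians of the 12 lists under alternatives, 13 moved by more than the SD between probe sets divided by the square root of the number of genes measured in the list, and 9 changed sign. Pparg and Scd1 lie near the floor, where signal over background limits the ratio.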
